A study of Zea mays with 2 samples.

Results

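The genes described here encode the enzymes that build and take apart the starch polymers of the maize (Zea mays) kernel. They were found by words in the gene descriptions for starch synthases, branching enzymes, debranching enzymes, glucan phosphorylases, glucanotransferases, water dikinases and amylases, and 23 of 33283 genes matched. The 23 comprised 1 granule-bound starch synthase, 7 soluble starch synthases, 4 branching enzymes, 4 debranching enzymes, 1 alpha-amylase and 6 beta-amylases. Endosperm RNA at 15 days after pollination was sequenced from kernels of the defective kernel mutant dek33 and from wild type kernels. The sources used here do not give the allele, the genetic background or the number of kernels behind each sample. The labels describe triplicates, but the data used here hold 1 value per gene and genotype, so no difference has a replicate check or a test. Every difference below is between these libraries, and a change in the genotype cannot be told apart from variation between samples. In bulk tissue, fewer cells of a type and less RNA per cell cannot be told apart either.

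Starch is made of amylose, which is nearly linear, and amylopectin, which is branched. Starch synthases lengthen glucan chains from ADP-glucose, branching enzymes cut a chain and rejoin it as a branch, and debranching enzymes of the isoamylase type trim misplaced branches so that amylopectin can crystallise. Amylases and phosphorylases release maltose or sugar phosphate from the polymer. Several of these genes were first known from maize kernel mutants, among them waxy, amylose extender, sugary1, sugary2 and dull1.

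Values are FPKM, sequenced fragments per unit of transcript length and of library size, so levels can be compared between genes. The number of reads is unknown. Ratios are log2((dek33 + 1)/(wild type + 1)), on which differences of low genes come out too small. A fold printed for a single gene or a sum is the plain ratio of FPKM, without the added 1. Over the 21688 genes that reached 1 FPKM in either library the median log2 ratio was 0.44, a factor of 1.36 toward dek33. A centred ratio has this median subtracted. The 20 genes with zein in their description took 16.7% of all FPKM in dek33 and 31.2% in wild type. They are storage proteins, apart from the FL1 membrane protein, and none is described as a gamma or beta zein. Of the 20, 3 were listed at 0 in wild type but had 24482, 22884 and 11333 FPKM in dek33. The zein shares of the libraries therefore do not rest on the same genes. The dek33 gene is known to encode PyrR, a reductase of riboflavin synthesis. PyrR (GRMZM2G090068) had 6.44 FPKM in the dek33 library and 4.55 FPKM in the wild type library, and its centred log2 ratio was -0.018. A mutant can keep its transcript, so the labels are not checked by these values.

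The summed level of the 23 genes was nearly the same, at 5597 FPKM in dek33 and 5446 FPKM in wild type, a ratio of 1.03 where the shift of all genes was 1.36, but its make-up was not. As a share of all FPKM the 23 genes held 0.735% in dek33 and 0.810% in wild type, so the direction of this sum turns with the scaling. Branching enzymes supplied a larger part of the sum in dek33, and granule-bound starch synthase a smaller part. Branching enzyme FPKM made up 30.1% of the sum in dek33 and 14.9% in wild type. Granule-bound synthase made up 54.2% in dek33 and 71.7% in wild type. Soluble synthases held 8.89% in dek33 and 8.79% in wild type. The plot of step shares shows this in the dark grey and the red segments.

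**Figure D1:**
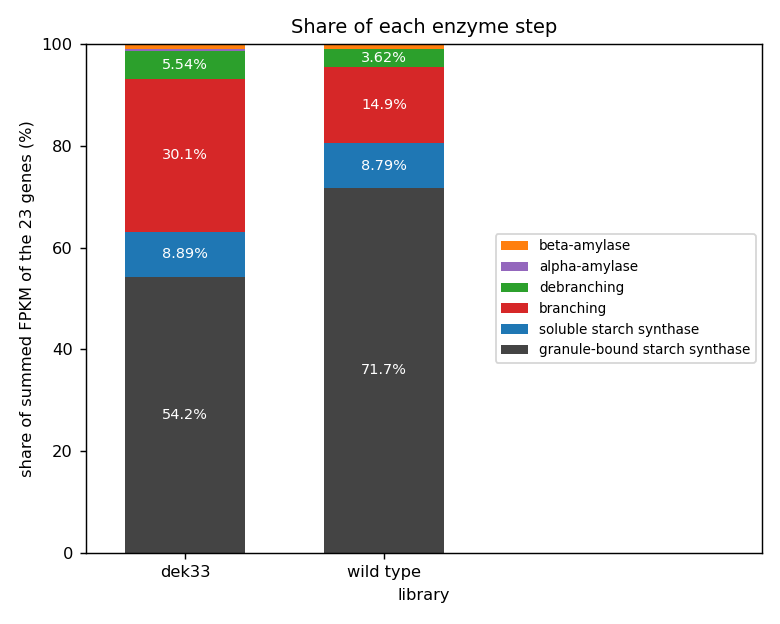
Share of each enzyme step (y axis, percent of the summed FPKM of the 23 genes) in the dek33 library and the wild type library (x axis), 1 bar per library. The branching segment is 30.1% in dek33 and 14.9% in wild type, and the granule-bound synthase segment is 54.2% in dek33 and 71.7% in wild type.

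Of the 23 genes, 21 reached 1 FPKM in either library and 16 reached 5 FPKM. A 2-fold difference on the ratio scale, in genes that reached 5 FPKM, was counted as higher or lower. By the deposited values 3 of the 16 were higher in dek33 and 0 were lower, or 18.8% higher, where 14.8% of all 14348 genes at that level were higher and 4.02% lower. The 3 were the branching enzymes SBEIIb and SBEIIa and the alpha-amylase. After centring 1 was higher and 3 were lower, which is 6.25% and 18.8% of the 16, where 4.40% of all genes were higher and 6.79% lower. The higher one was the alpha-amylase, and the 3 lower ones were pullulanase, isoamylase 3 and the beta-amylase GRMZM2G450125. The alpha-amylase reached 5 FPKM only in dek33 and isoamylase 3 only in wild type. Both therefore entered the 16 only through the library where they were high. With 16 genes, each of these shares rests on 3 genes or fewer. The median log2 ratio of the 21 genes was 0.25, against 0.44 over all genes, and 9 of the 21 lay above the median of all genes and 12 below it. Among the 16, single log2 ratios ran between -0.82 and 1.71 with an SD over genes of 0.75, against 0.81 over all genes at 5 FPKM or more.

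**Figure D2:**
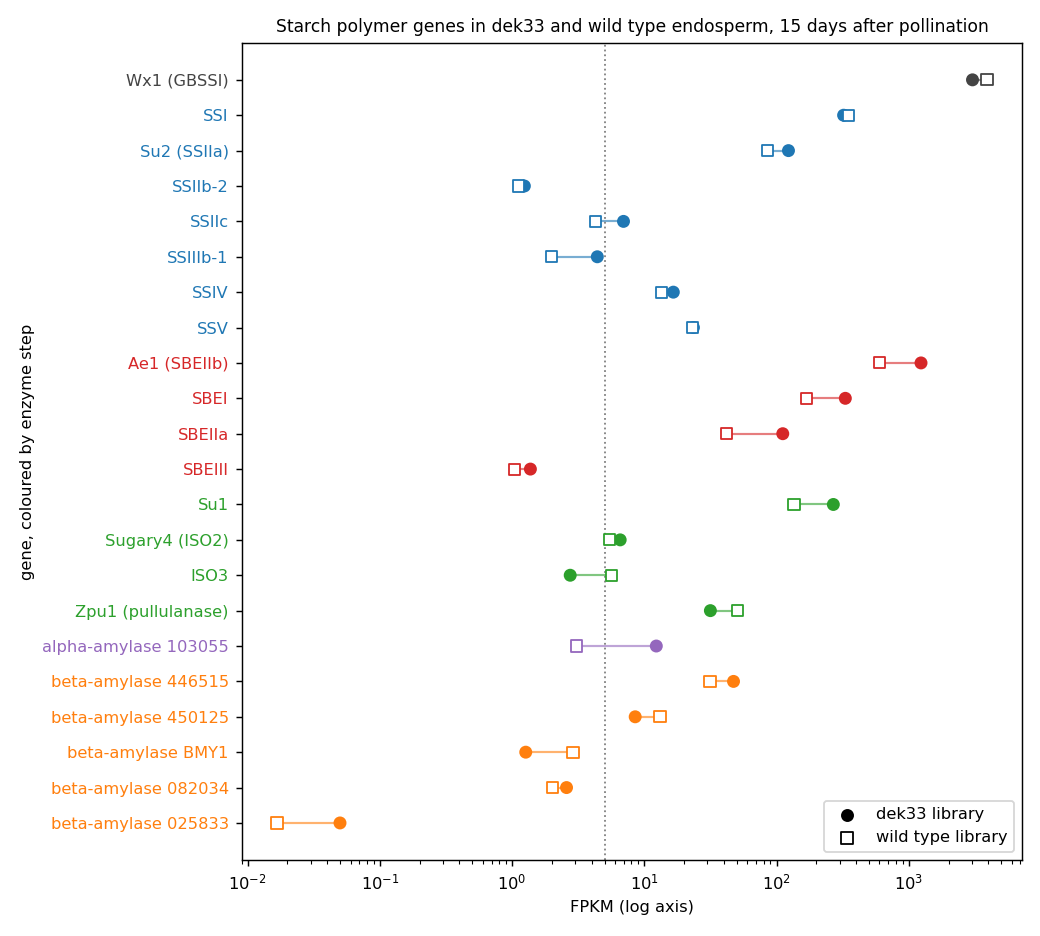
FPKM (x axis, log scale) of 22 of the 23 genes (y axis, coloured by enzyme step) in the dek33 library (filled circles) and the wild type library (open squares), 1 value per gene and library. The dotted line marks 5 FPKM, and the beta-amylase GRMZM5G803981, listed at 0 in wild type, is not drawn. The circles of the 3 abundant branching enzymes and of Su1 lie to the right of their squares, and those of Wx1, pullulanase and ISO3 to the left.

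Granule-bound starch synthase 1 (GRMZM2G024993, the waxy gene Wx1, chromosome 9, 23267684 to 23271612 on B73 RefGen_v3), which makes amylose inside the granule, was the most abundant of the 23 genes in both libraries. Wx1 had 3036 FPKM in the dek33 library and 3904 FPKM in the wild type library, 1.29-fold lower in dek33. It ranked 25 among all genes in dek33 and 20 in wild type. Its log2 ratio was -0.36 as deposited and -0.80 after centring, and 11.6% of expressed genes had a lower ratio. Wx1 therefore stayed short of the 2-fold limit under either scale while lying below the general shift.

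The soluble starch synthases lengthen the chains of amylopectin. None of the 5 with at least 5 FPKM passed the 2-fold limit, as deposited or centred. Starch synthase I (GRMZM2G129451, chromosome 9, 17640522 to 17651342), which makes short chains, had 322 FPKM in dek33 and 350 FPKM in wild type, a log2 ratio of -0.12. Sugary2 (GRMZM2G348551, chromosome 6, 113414100 to 113419156), which is starch synthase IIa and extends short chains to intermediate ones, had 123 FPKM in dek33 and 84.9 FPKM in wild type, a log2 ratio of 0.53. Starch synthase I thus lay below the median of all genes and Sugary2 close to it, and the FPKM of starch synthase I was 2.61 times that of Sugary2 in dek33 and 4.12 times in wild type.

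The other soluble synthases were lower in level. Starch synthase IV (GRMZM2G044744), which in Arabidopsis takes part in starting granules, had 16.6 FPKM in dek33 and 13.6 FPKM in wild type. Starch synthase V (GRMZM2G130043) had 23.5 FPKM in dek33 and 23.1 FPKM in wild type. Both lay below the shift of all genes, at centred log2 ratios of -0.17 for starch synthase IV and -0.42 for starch synthase V. Starch synthase IIc (GRMZM2G126988) had 6.96 FPKM in dek33 and 4.27 FPKM in wild type. Starch synthase IIIb-1 (GRMZM2G121612) had 4.41 FPKM in dek33 and 1.99 FPKM in wild type, and IIb-2 (GRMZM2G105791) 1.24 FPKM in dek33 and 1.12 FPKM in wild type. These minor isoforms made up little of the step as found by description words. Starch synthase I alone held 64.7% of its FPKM in dek33 and 73.1% in wild type. Dull1, the starch synthase III of endosperm, was missed by these words, at 101 FPKM in dek33 and 83.4 FPKM in wild type. The shares and sums given here leave Dull1 out. Summed, the soluble synthases reached 497 FPKM in dek33 and 479 FPKM in wild type, and without starch synthase I 176 FPKM in dek33 and 129 FPKM in wild type.

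All 3 abundant branching enzymes had higher values in dek33. Branching enzyme IIb (GRMZM2G032628, the amylose extender gene Ae1, chromosome 5, 168492139 to 168509225), the main branching isoform of maize endosperm amylopectin, had 1238 FPKM in the dek33 library and 603 FPKM in the wild type library, 2.05-fold higher. Branching enzyme I (GRMZM2G088753, chromosome 5, 63346023 to 63352952), which transfers longer chains, had 331 FPKM in dek33 and 167 FPKM in wild type, 1.98-fold higher. Branching enzyme IIa (GRMZM2G073054, chromosome 2, 59216710 to 59226937), known as the main isoform of maize leaves, had 111 FPKM in dek33 and 41.8 FPKM in wild type, 2.67-fold higher. All 3 lay above the shift of all genes, with centred log2 ratios of 0.60 for IIb, 0.54 for I and 0.95 for IIa, and none of them passed 2-fold after centring. Of expressed genes, 95.9% had a lower ratio than branching enzyme IIa, 89.0% a lower one than IIb and 87.1% a lower one than I.

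The 2-fold limit cut between genes with nearly the same ratio. On the log2 scale branching enzyme IIb was just inside at 1.04, while branching enzyme I and sugary1 were just outside at 0.98 each. The proportions among the branching isoforms were similar between libraries, with IIb at 3.74 times I in dek33 and 3.60 times in wild type, and at 11.1 times IIa in dek33 and 14.4 times in wild type. Branching enzyme III (GRMZM2G005298) was low, at 1.38 FPKM in dek33 and 1.04 FPKM in wild type. The step summed to 1683 FPKM in dek33 and 813 FPKM in wild type, 2.07-fold higher, and the difference did not rest on the most abundant gene, since without IIb the sums were 444 FPKM in dek33 and 210.2 FPKM in wild type, 2.11-fold. Isoforms IIa and IIb are similar in sequence, and the sources used here do not say how reads that match both were counted.

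A proportion taken within 1 library is not touched by the scaling between libraries. Branching enzyme FPKM came to 0.554 of granule-bound synthase FPKM in dek33 and to 0.208 in wild type, so that the proportion was 2.66-fold higher in dek33. Set against the soluble synthases found by description words, branching enzyme FPKM was 3.38 times their sum in dek33 and 1.70 times in wild type. This was 1.99-fold higher in dek33, and the sum leaves out Dull1. These proportions were chosen after the values had been seen.

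**Figure D3:**
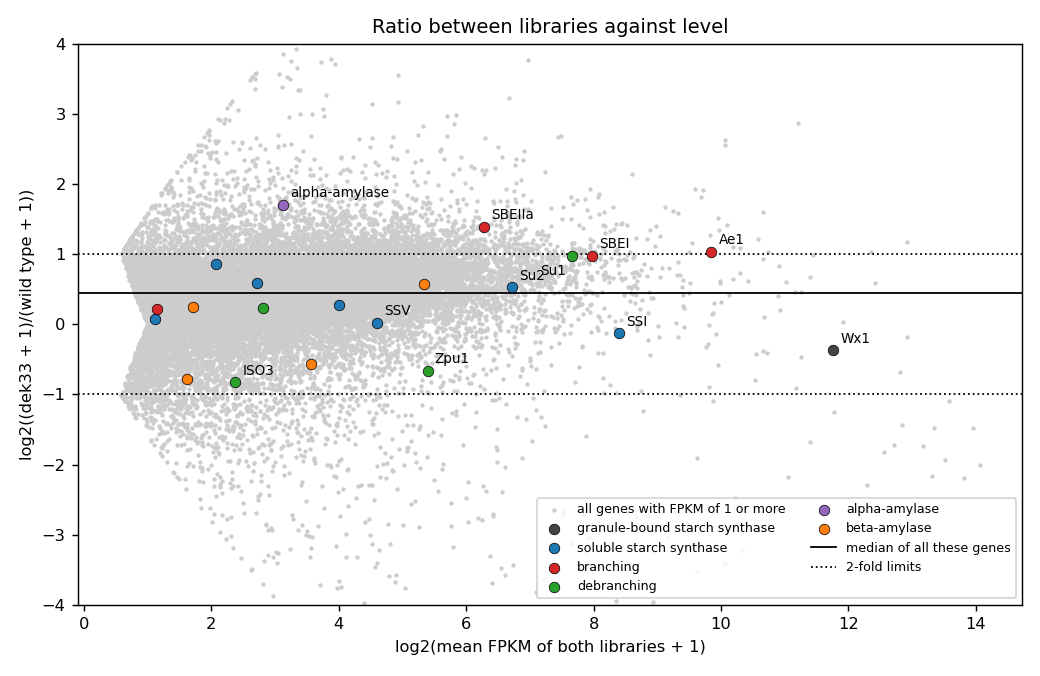
Log2 ratio of dek33 to wild type (y axis, FPKM plus 1) against log2 of mean FPKM plus 1 (x axis) for the 21688 genes with at least 1 FPKM (grey), with 21 starch polymer genes coloured by step. The solid line is the median of all these genes at 0.44, the dotted lines are the 2-fold limits, and 47 grey genes beyond 4 on the y axis are not drawn. The abundant branching enzymes and Su1 lie above the solid line, and Wx1, SSI, Zpu1 and ISO3 below it.

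The debranching enzymes did not all differ in the same direction. Sugary1 (GRMZM2G138060, Su1, chromosome 4, 41396390 to 41405179), the isoamylase whose loss gives sweet corn, had 269 FPKM in the dek33 library and 136 FPKM in the wild type library, 1.98-fold higher. Sugary4 (GRMZM2G090905, isoamylase 2), the partner subunit of Su1, had 6.57 FPKM in dek33 and 5.42 FPKM in wild type. Pullulanase (GRMZM2G158043, Zpu1, chromosome 2, 109260299 to 109311620), which also removes branches and acts in starch breakdown, had 31.6 FPKM in dek33 and 50.5 FPKM in wild type, 1.60-fold lower. Isoamylase 3 (GRMZM2G150796, chromosome 7, 129134063 to 129145654), which in Arabidopsis acts mainly in starch breakdown, had 2.75 FPKM in dek33 and 5.64 FPKM in wild type, 2.05-fold lower before the pseudocount. Su1 thus lay above the shift of all genes and the other 3 below it. Of those 3, Sugary4 was the nearest to the shift, at a centred log2 ratio of -0.20. Pullulanase was at -1.10 and isoamylase 3 at -1.27.

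Within each library Su1 stood at 8.51 times pullulanase in dek33 and 2.69 times in wild type, and at 97.8 times isoamylase 3 in dek33 and 24.0 times in wild type. The sum of the step, 310 FPKM in dek33 and 197 FPKM in wild type, followed Su1. Without Su1 the direction was the opposite, at 40.9 FPKM in dek33 and 61.5 FPKM in wild type. Pullulanase made up most of that remainder, at 31.6 FPKM in dek33 and 50.5 FPKM in wild type. Sugary4 went the other way, at 6.57 FPKM in dek33 and 5.42 FPKM in wild type. The locus printed for pullulanase also carries GRMZM2G100747, which had 0.351 FPKM in dek33 and 0.294 FPKM in wild type.

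Genes of starch breakdown differed in either direction. The only alpha-amylase found (GRMZM2G103055, chromosome 5, 209947649 to 209949725), an enzyme that cuts within the glucan chain, had 12.3 FPKM in the dek33 library and 3.08 FPKM in the wild type library. Before the pseudocount this was 4.01-fold higher in dek33. The log2 ratio, 1.71 as deposited and 1.27 after centring, was the highest among the 16 genes with at least 5 FPKM. Of expressed genes, 98.1% had a lower ratio. The alpha-amylase reached 5 FPKM only in dek33, so it entered the 16 only through the library where it was high. In germinating cereal grains alpha-amylases are secreted by the aleurone and the scutellum, and which tissue this transcript came from was not tested.

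Beta-amylases, which release maltose from chain ends, also differed among themselves. The most abundant (GRMZM2G446515, chromosome 7, 62317634 to 62323803) had 47.3 FPKM in dek33 and 31.4 FPKM in wild type, with a centred log2 ratio of 0.13. GRMZM2G450125 (chromosome 1, 9051958 to 9054939) had 8.53 FPKM in dek33 and 13.2 FPKM in wild type, 1.54-fold lower and past 2-fold after centring. BMY1 (GRMZM2G058310) had 1.27 FPKM in dek33 and 2.89 FPKM in wild type. GRMZM2G082034 had 2.58 FPKM in dek33 and 2.01 FPKM in wild type. The last pair were barely found, with GRMZM2G025833 at 0.0499 FPKM in dek33 and 0.0167 FPKM in wild type, and GRMZM5G803981 at 0.0107 FPKM in dek33 and listed at 0 in wild type. The first of the 6 genes carried 79.2% of beta-amylase FPKM in dek33 and 63.5% in wild type, and without it the sums were 12.4 FPKM in dek33 and 18.1 FPKM in wild type. BMY1 shares its printed locus with GRMZM2G358467, at 0.164 FPKM in dek33 and 0.297 FPKM in wild type.

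**Figure D4:**
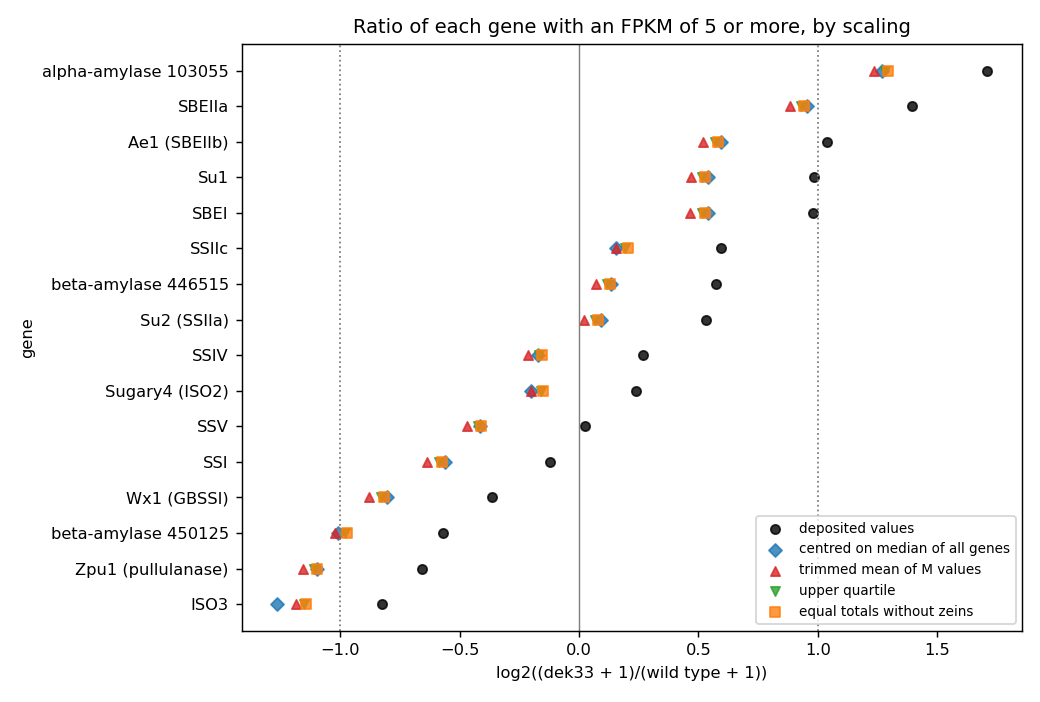
Log2 ratio of dek33 to wild type (x axis, FPKM plus 1) for the 16 genes with at least 5 FPKM in 1 or both libraries (y axis), as deposited (black) and under 4 scalings (coloured). The dotted lines are the 2-fold limits. The scalings move every gene to the left, so that the alpha-amylase is the only one left beyond the right-hand limit.

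The word rule missed some genes of the same pathway, which were added by name after their values had been seen and belong to no count above. The plastidial starch phosphorylase pho1 (GRMZM2G074158, chromosome 1, 278250612 to 278259617), described only as a phosphorylase, had 462 FPKM in the dek33 library and 179 FPKM in the wild type library, 2.58-fold higher, and a centred log2 ratio of 0.92. The other gene described so (GRMZM2G085577) had 14.4 FPKM in dek33 and 23.5 FPKM in wild type, 1.64-fold lower. Dull1 (GRMZM2G141399), the starch synthase III of endosperm, had 101 FPKM in dek33 and 83.4 FPKM in wild type, below the shift of all genes. GBSSIIa (GRMZM2G008263), a second granule-bound synthase, had 9.28 FPKM in dek33 and 16.9 FPKM in wild type, 1.82-fold lower like Wx1 in direction. A separate gene model that the gene table also names sbe1 (GRMZM2G088737) had 6.18 FPKM in dek33 and 4.02 FPKM in wild type. No gene description matched a glucan water dikinase or a 4-alpha-glucanotransferase by the words used.

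Genes that supply ADP-glucose from sucrose, found by description words, gave 23 genes, of which 18 had at least 5 FPKM. Of these 18, 1 was higher and 3 were lower in dek33 as deposited, where 14.8% of all genes were higher and 4.02% lower. After centring 0 were higher and 5 lower, where 4.40% of all genes were higher and 6.79% lower. The most abundant over both libraries was the small subunit bt2 of ADP-glucose pyrophosphorylase (GRMZM2G068506), at 3700 FPKM in dek33 and 1868 FPKM in wild type. In wild type alone, sucrose synthase 1 (GRMZM2G089713) was the most abundant, at 3324 FPKM in dek33 and 2089 FPKM in wild type. The highest ratio was that of cytoplasmic phosphoglucomutase 2 (GRMZM2G023289), at 219 FPKM in dek33 and 108 FPKM in wild type. The lowest was that of a fructokinase-1 (GRMZM2G026969), at 6.27 FPKM in dek33 and 22.3 FPKM in wild type. The list of maltose and glucose release held 1 gene, a maltose excess protein 1-like exporter (GRMZM2G156356), at 13.2 FPKM in dek33 and 8.93 FPKM in wild type. The word lists for phosphoglucan phosphatases and for amylase inhibitors found 0 genes.

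Markers of kernel tissues also differed between the libraries, and their counts stand against the same shares of all genes, 14.8% higher and 4.02% lower as deposited and 4.40% and 6.79% after centring. Starchy endosperm was marked by the zeins and by opaque-2, the prolamin-box factor (2 gene models), sh2, bt2 and Wx1, of which Wx1 is itself among the 23 starch genes. Of 19 zeins 3 were higher and 13 lower in dek33, and 3 higher and 15 lower after centring. The 3 higher zeins were listed at 0 in wild type and had 24482, 22884 and 11333 FPKM in dek33. The zein share of all FPKM in dek33 includes them. The other 6 starchy endosperm genes all had at least 14.6 FPKM in each library, and none passed 2-fold. As deposited, their log2 ratios were 0.93 for opaque-2, 0.99 for bt2 and 0.46 for sh2. They were 0.24 and 0.26 for the prolamin-box factor and -0.36 for Wx1. After centring the values in the same order were 0.49, 0.55, 0.016, -0.20, -0.18 and -0.80. Of 11 oil body and globulin genes, which mark embryo, scutellum and aleurone and all reached 5 FPKM, 9 were lower and 0 higher, and 10 lower and 0 higher after centring. They summed to 757 FPKM in dek33 and 5991 FPKM in wild type, and none was at 0. The late embryogenesis protein EMB564 had 53.2 FPKM in dek33 and 3482 FPKM in wild type. Of 10 basal transfer layer genes 6 reached 5 FPKM, and of these 2 were lower and 0 higher, or 5 lower and 0 higher after centring. The 10 summed to 211 FPKM in dek33 and 421 FPKM in wild type, with none at 0. The 17 green tissue genes reached at most 1.47 FPKM in dek33 and 1.67 FPKM in wild type. The part of these tissues in the starch gene values was not tested.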

How the data were processed

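The authors deposited 1 FPKM value per gene for each genotype, 1 dek33 and 1 wild type sample, grouped by the genotype label. The submitters' processing notes name Bowtie 0.12.2 and the B73 RefGen_v3 build. The sources used here do not give the program for FPKM, the annotation, the handling of multiply mapped reads, strand use or the merging of the triplicate. A value of 1e-05 or less was read as listed at 0. Depth is unknown, so no counting interval is given.

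Starts were raised by 1, because the length of 610 short gene models was then divisible by 3 in 77.9% of cases, and without it in 10.7%. Names come from the descriptions and a RefSeq gene table of NAM-5.0, which matched 21 of the 23 genes. Steps followed the description words, except that Sugary2, a starch synthase, was moved out of the debranching enzymes after the files were seen. Every gene with at least 1 FPKM is named. The genes and lists were chosen with earlier results of these data known. A search of promoters and a display of protein sequences were planned and not done here. The centred ratio and the 2-fold limit were run on simulated data with planted 4-fold changes. That run cannot show how genes near the 2-fold limit behave, and it did not score the deposited ratio. Alternatives were other pseudocounts, filters, scalings, size limits and membership. Calculations ran in Python 3.11.15 with pandas 2.3.3, numpy 2.4.6 and scipy 1.17.1, and plots were made with matplotlib 3.10.9.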

Additional observations from a re-analysis of the deposited data

How the results depend on the processing

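With 1 value per genotype, neither replicate error nor read depth limits can be given. The counts of 3 higher and 0 lower genes depended on the scaling. They were 1 and 3 when centred or scaled by a trimmed mean (trimming 30% of log ratios and 5% of levels at either end), and 1 and 2 by upper quartile or equal totals without zeins. A 1.5-fold limit gave 6 and 2, a 4-fold limit 0 higher, and a pseudocount of 0.1 gave 1 lower gene. The members' median log2 ratio, 0.25 over 21 genes, was -0.19 centred, -0.10 by trimmed mean, -0.070 by upper quartile and -0.062 without zeins. The log2 ratio of summed branching enzymes, 1.05, was 0.61, 0.53, 0.58 and 0.59 in the same order, no longer past 2-fold. The log2 ratio of the branching to granule-bound proportion was 1.41 under every scaling by construction and 1.44 without branching enzyme IIb. Supply genes, 1 higher and 3 lower, became 0 higher with a pseudocount of 5 and 0 higher and 5 lower under all 4 scalings, 8 and 5 at 1.5-fold, and 0 and 0 at 4-fold. Of the 21 named genes, 15 had the same sign under all 4 scalings and 6 with deposited log2 ratios of 0.024 to 0.27 became negative under all 4. Centring subtracts the same shift from every gene, while the other scalings divide the dek33 values before the pseudocount is added and so move low genes less, and a larger pseudocount draws low genes toward no difference, all by construction. Adding the 5 genes found by name and moving Sugary2 were chosen after seeing the data, as was a minimum of 5 FPKM for the median. No gene description named an enzyme outside starch, so leaving such genes out gave no separate value. No paired analysis was possible because there is only 1 sample of dek33 and 1 of wild type.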
